A study of Mus musculus with 6 samples.

Results

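The genes described here encode the vacuolar proton pump (V-ATPase) and the transporters and enzymes that move acid and base across kidney tubule cells. They were chosen by name: 26 protein-coding genes whose mouse symbol starts with Atp6v or Atp6ap, and 18 genes named singly, which gave 44 of the 57180 genes listed. No measured value entered that rule, although it was chosen with earlier results of these data known. By role, 13 were subunits of the V1 sector, 10 of the V0 sector, 3 were accessory proteins of the pump, 6 carried bicarbonate or exchanged chloride for base, 1 exchanged sodium for protons, 2 carried ammonia and 8 were carbonic anhydrases. The remaining gene, Atp6v1fnb, is named only after its neighbour Atp6v1f.

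RNA of whole kidneys was sequenced from 6 wild-type male C57BL/6J mice, 7 weeks old when obtained. The 3 nanoplastic mice received cationic polystyrene nanoparticles by mouth at 200 mg/kg once a day for 6 weeks. The 3 vehicle mice received deionised water (0 mg/kg) on the same schedule, and neither group carried an altered allele. Each library came from 1 mouse. One dose and one time were sampled, and the tissue was not sorted, so fewer cells of a type and less RNA per cell cannot be told apart in any value below.

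The V-ATPase is a rotary motor. Its V1 sector, on the cytosolic side, hydrolyses ATP, and its membrane-bound V0 sector carries protons into a vesicle or out of the cell. Most cells use it to acidify lysosomes and endosomes. In the collecting duct, intercalated cells place it in the plasma membrane with cell-restricted isoforms such as B1 and a4: type A cells secrete acid and return bicarbonate through Slc4a1, and type B cells secrete bicarbonate through Slc26a4 (pendrin). The proximal tubule reclaims most filtered bicarbonate with Slc9a3, membrane carbonic anhydrases and Slc4a4.

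The libraries held 23585274, 23793640 and 19408534 expected counts in nanoplastic mice and 26292760, 23748774 and 23420454 in vehicle mice, and the 44 genes took 0.502% to 0.552% of them. Kidney markers were present: Slc34a1, the proximal phosphate transporter, stood between 3315 and 3952 CPM (counts-per-million, scaled by the TMM method) in all 6 libraries. A pair of libraries stood apart: Adipoq, an adipocyte hormone, had 18.03 CPM in nanoplastic 1 and 5.52 CPM in vehicle 3, and at most 0.104 CPM in the other 4. Summed over 8 principal cell markers, the other main collecting duct cell, the level was 409, 285 and 236 CPM in nanoplastic mice, against 249, 243 and 222 CPM in vehicle mice. Over 5 urothelial markers it was 17.4, 2.505 and 2.86 CPM in nanoplastic mice, against 5.46, 3.82 and 1.70 CPM in vehicle mice.

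Per length of transcript, Slc4a4 had the highest level of all 44 genes, at 172 TPM (transcripts-per-million, as deposited) in nanoplastic mice and 170 TPM in vehicle mice, means of 3. It was followed by the V1 subunits Atp6v1a, which binds and cleaves ATP, and Atp6v1e1, part of a peripheral stalk, with means of 100.3 and 103 TPM in nanoplastic kidneys and 108 and 105 TPM in vehicle kidneys. Those neighbours in the order were within the spread of the libraries. The lowest measured level among the genes tested was that of Atp6v1g2, an isoform known from neurons, at 0.423 TPM in nanoplastic mice, against 0.480 TPM in vehicle mice. The summed level of the pump genes was 927, 965 and 912 TPM in nanoplastic mice, against 917, 925 and 991 TPM in vehicle mice, and the groups overlapped. Beside all TPM values stands the fact that 7SL RNA alone took 55.5% to 59.4% of the total in each library.

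**Figure D1:**
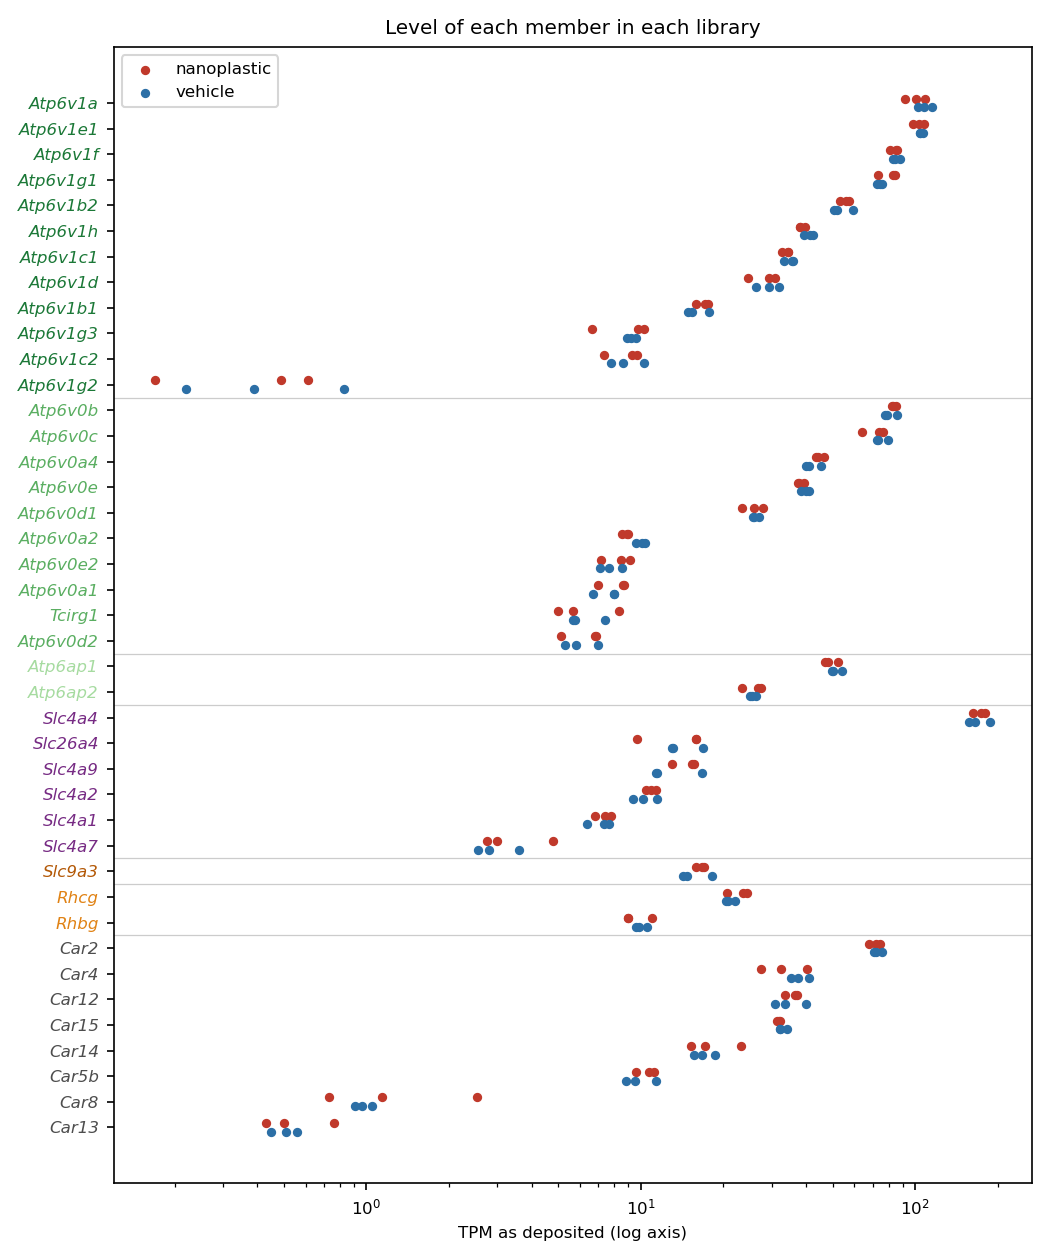
Level of each of the 41 tested genes in each library, in TPM as deposited on a log axis, coloured by group and grouped by role (V1, V0, accessory, bicarbonate and chloride-base transporters, sodium-proton exchange, ammonia transport, carbonic anhydrases). In each row the nanoplastic points are drawn above the vehicle points only so that both can be seen. Nearly all rows overlap along the axis, over levels between Atp6v1g2 near 0.4 TPM and Slc4a4 near 170 TPM.

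Of the kidney-enriched isoforms, a4 held most of its subunit, and B1, C2, d2 and G3 held the smaller part of theirs. The a4 isoform (Atp6v0a4), which is restricted mainly to intercalated cells and the proximal tubule, made up 65.9% ± 3.15 of the summed TPM of the 4 subunit a genes in nanoplastic mice and 63.9% ± 0.772 in vehicle mice (SD, n = 3 each). Atp6v0a2, an isoform of the Golgi and endosomes, held 12.8%, 12.7% and 13.3% in nanoplastic mice, against 15.9%, 15.4% and 14.2% in vehicle mice. Each nanoplastic share of a2 was below each vehicle share, a difference picked out after the values were seen and not tested. The B1 isoform (Atp6v1b1) held 23.4% ± 1.61 of subunit B in nanoplastic mice and 22.8% ± 0.516 in vehicle mice, and the widely used B2 held the rest. For d2 (Atp6v0d2) the share of subunit d was 19.7% ± 3.66 in nanoplastic mice and 18.6% ± 1.76 in vehicle mice. C2 (Atp6v1c2) held 20.6% ± 2.71 of subunit C in nanoplastic mice and 20.2% ± 1.87 in vehicle mice, and G3 (Atp6v1g3) held 9.98% ± 2.48 of subunit G in nanoplastic mice and 10.99% ± 0.304 in vehicle mice. The shares of these kidney-enriched isoforms overlapped between the groups.

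**Figure D2:**
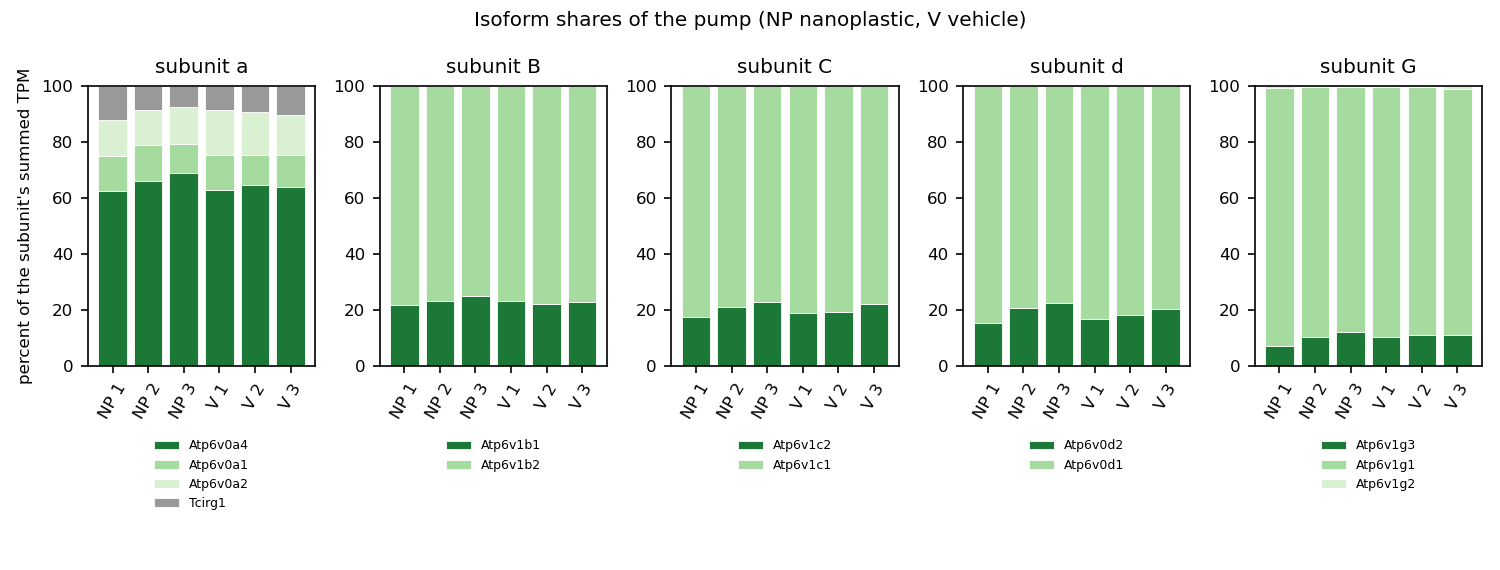
Share of each isoform in the summed TPM of its subunit (percent), one stacked bar per library, nanoplastic (NP) left of vehicle (V), for subunits a, B, C, d and G. The band of Atp6v0a2 is near 13% in nanoplastic bars and 14.2% to 15.9% in vehicle bars, while the kidney-enriched isoforms at the base of each bar overlap.

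No member passed the test between nanoplastic and vehicle mice. By edgeR's quasi-likelihood test with Benjamini-Hochberg adjustment, 0 of the 41 members that survived the filter on low counts reached an adjusted p of 0.05, and 0 of all 18092 such genes did (0.0%). The lowest adjusted p of a member was 0.524. At an unadjusted p under 0.05, 1301 genes (7.19%) stood out, and 4 members did. DESeq2 called 55 genes over the whole table and limma-voom 0, none of them members. All 4 members were lower in nanoplastic mice, where 3.5% of all genes were lower at that level, and 0 were higher, where 3.69% of all genes were. Levels in the 3 nanoplastic mice lay wholly below those of the 3 vehicle mice for 5 members, against 6.32% of all genes, and wholly above for 0 members, against 6.54%.

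The untested genes were near absent. Atp6v1e2, a testis isoform, had 0 counts over the nanoplastic libraries and 5 over the vehicle libraries, and Atp6ap1l, a homologue of Atp6ap1, had 1 in nanoplastic and 0 in vehicle libraries. Atp6v1fnb had 4.26 counts in nanoplastic and 6 in vehicle libraries.

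The precision was high for most members. The 95% interval of the fold change lay within 1.5-fold either way for 38 of the 41, against 63.1% of all genes, and the exceptions were the low-level genes Atp6v1g2, Car8 and Car13. The median half-width of that interval was 0.19 on the log2 scale for members and 0.28 for all genes. The log2 fold change, nanoplastic minus vehicle, was negative for 30 members, where 48.1% of all genes were negative, with a median of -0.05 against 0.01 over all genes. That split depended on scaling: with library size alone 21 of 41 were negative, with a median over all genes of 0.05, and with log2(TPM + 1) 20 were, with a median over all genes of 0.04. Set against the median of all genes, 31 members lay below it with TMM, 31 with library size alone and 25 with TPM.

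**Figure D3:**
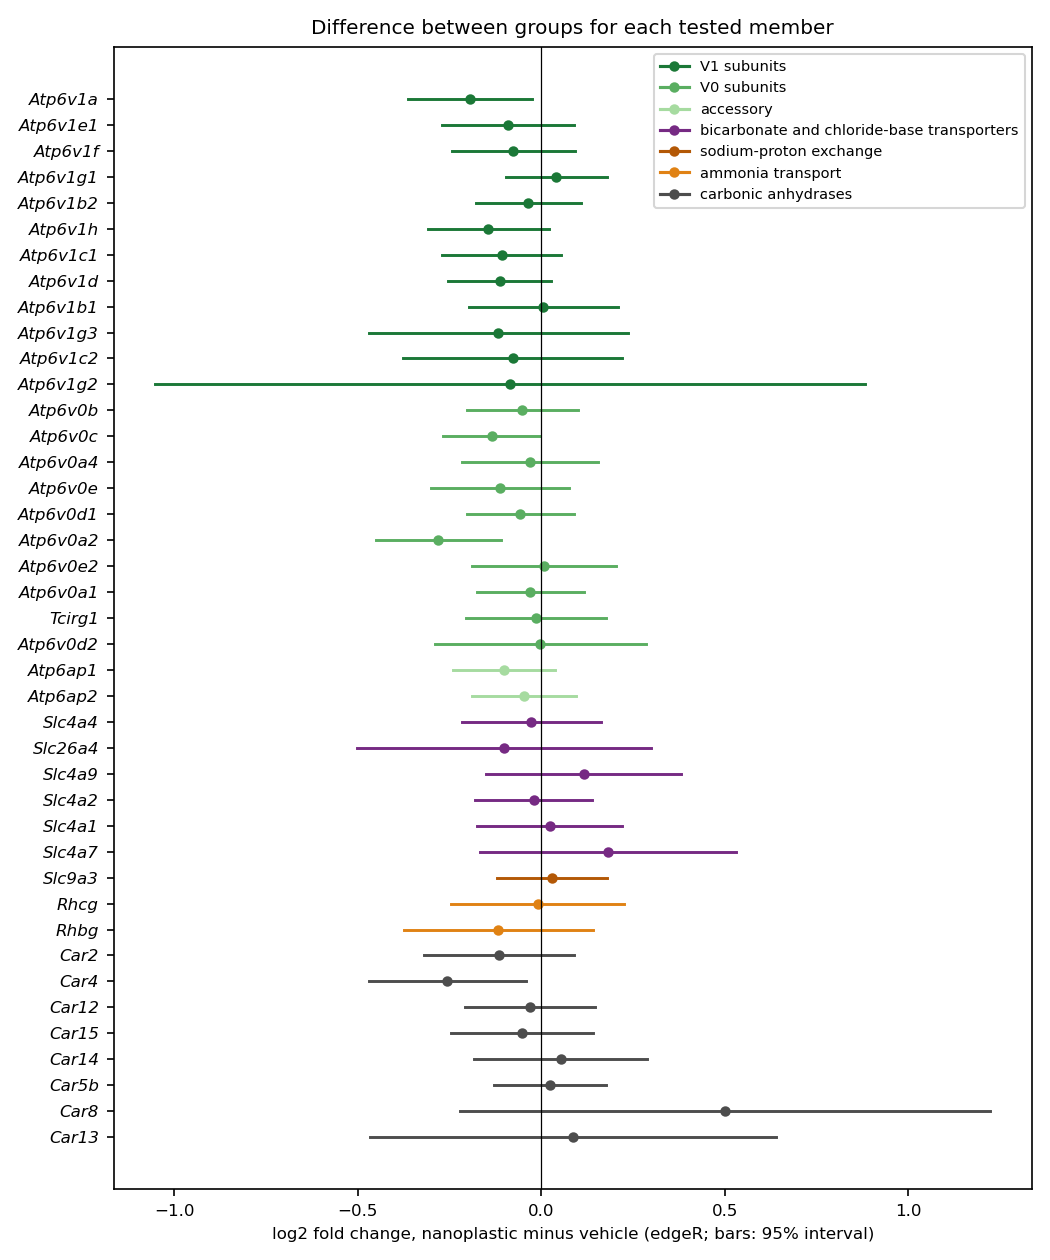
Log2 fold change of each of the 41 tested members, nanoplastic minus vehicle (edgeR, TMM), with its 95% interval, coloured by role. Most points sit a little left of 0, the largest negative one is Atp6v0a2 at -0.28, and Car8 at 0.50 has the largest positive value with an interval across 0.

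Among the pump genes, 21 of the 24 tested had a negative log2 fold change, with a median of -0.08. With library size alone 16 were negative and with TPM 15, scalings under which the median of all genes was 0.05 and 0.04. Against the median of all genes, 22 of the 24 lay below with TMM, 22 with library size alone and 17 with TPM. The 19 pump genes outside the set known from intercalated cells made up most of this, with 17 negative and a median of -0.08. Without nanoplastic 1 the count was 17 again, with a median of -0.07. Relative to the vehicle mean, the median of these 19 was -0.126, -0.089 and -0.056 on the log2 scale in nanoplastic 1, 2 and 3. In vehicle 1, 2 and 3 it was -0.015, 0.052 and -0.058, so the groups overlapped. Over all 24, vehicle 1 (-0.016) and vehicle 3 (-0.043) lay below nanoplastic 3 (-0.011). Vehicle 2 was the highest library for 11 of the 19 (57.9%, against 18.3% of all genes), and nanoplastic 1 the lowest for 8 (42.1%, against 19.4%). Against the median of all genes, 17 of these 19 lay below with TMM, 17 with library size alone and 15 with TPM.

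In the V0 sector, Atp6v0a2 had 67.7, 69.9 and 79.8 CPM in nanoplastic mice, against 88.4, 91.1 and 84.3 CPM in vehicle mice. Each nanoplastic mouse was below each vehicle mouse, and nanoplastic 3 came nearest. The log2 fold change was -0.28 ± 0.08 (SE), at an unadjusted p under 0.05 and an edgeR adjusted p of 0.524. It stayed under an unadjusted p of 0.05 in 13 of 14 alternative settings, between -0.35 and -0.17, the exception being log2(TPM + 1). Without nanoplastic 1 and vehicle 3 it was -0.26. Atp6v0c, the proteolipid that forms the rotating ring, had 129, 134 and 128 CPM in nanoplastic mice, against 142, 147 and 141 CPM in vehicle mice. These groups did not overlap either. Its log2 fold change was -0.14 ± 0.06 with an edgeR adjusted p of 0.689, and it passed an unadjusted p of 0.05 in 3 of the 14 alternatives. Its counts were not whole numbers, which means that reads were shared with other loci, and its pseudogene Atp6v0c-ps2 held 6.75 to 19.48 counts per library.

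Tcirg1, the a3 isoform of osteoclasts and lysosomes, had 21.0, 18.6 and 17.9 CPM in nanoplastic kidneys and 19.0, 20.4 and 18.8 CPM in vehicle kidneys, with a log2 fold change of -0.01. The groups overlapped. The 8 macrophage and osteoclast markers summed to 116, 123 and 116 CPM in nanoplastic mice, against 137, 133 and 126 CPM in vehicle mice. All 8 had a negative log2 fold change, where 48.1% of all genes did. The part of these markers in the Tcirg1 and Atp6v0d2 values was not tested. The other V0 genes, Atp6v0a1, Atp6v0b, Atp6v0d1, Atp6v0e and Atp6v0e2, ranged between -0.11 and 0.01, with adjusted p of 0.799 or more by edgeR.

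In the V1 sector, the catalytic subunit Atp6v1a had 548, 626 and 647 CPM in nanoplastic mice, against 682, 721 and 680 CPM in vehicle mice. No nanoplastic mouse reached the lowest vehicle mouse, and nanoplastic 1 was the lowest. The log2 fold change was -0.19 ± 0.08 with an edgeR adjusted p of 0.644, and 9 of the 14 alternatives gave a p under 0.05. It was -0.12 without nanoplastic 1, where its unadjusted p was no longer under 0.05. On the TPM scale the groups overlapped, at 91.6, 108 and 101 TPM in nanoplastic mice, against 102, 107 and 115 TPM in vehicle mice. Atp6v1b2, its widely expressed partner in the catalytic hexamer, had 253, 248 and 269 CPM in nanoplastic kidneys and 252, 271 and 266 CPM in vehicle kidneys, a log2 fold change of -0.04 with overlapping groups.

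Atp6v1h, which regulates whether V1 hydrolyses ATP, had 124, 131 and 141 CPM in nanoplastic mice, against 142, 157 and 139 CPM in vehicle mice, with a log2 fold change of -0.14 and an edgeR adjusted p of 0.715. Nanoplastic 3 overlapped with vehicle 3. Atp6v1d, part of the central shaft, had 78.8, 81.3 and 80.6 CPM in nanoplastic mice, against 82.5, 90.4 and 87.4 CPM in vehicle mice. These groups did not overlap, and the difference of -0.11 on the log2 scale had an edgeR adjusted p of 0.734. The other widely expressed V1 subunits, Atp6v1c1, Atp6v1e1, Atp6v1f and Atp6v1g1, lay between -0.11 and 0.04.

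The accessory protein Atp6ap1, an assembly factor that stays with V0, had 155, 153 and 155 CPM in nanoplastic mice, against 163, 174 and 159 CPM in vehicle mice. The groups did not overlap, and the log2 fold change was -0.10 with an edgeR adjusted p of 0.755. Atp6ap2, also known as the prorenin receptor, had 103, 101 and 98.9 CPM in nanoplastic mice, against 106, 109 and 98.7 CPM in vehicle mice. Its groups overlapped, with a log2 fold change of -0.05.

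**Figure D4:**
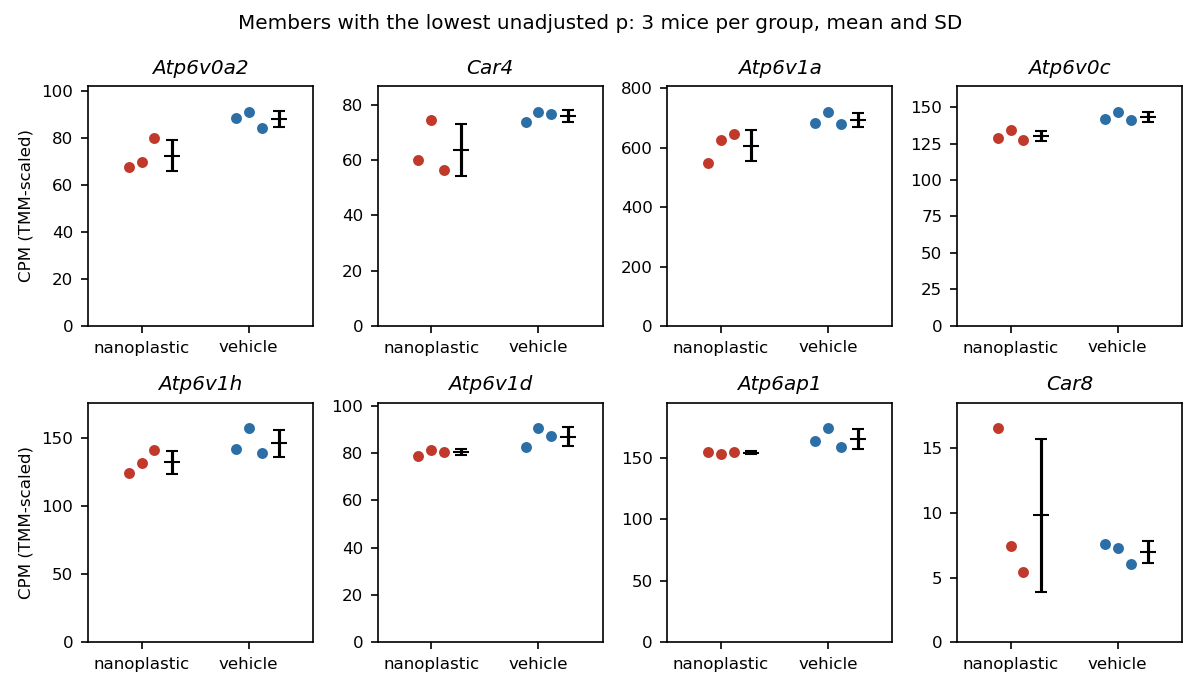
The 8 members with the lowest unadjusted p, in CPM on axes that start at 0. Each point is 1 mouse, and the bars give the mean and SD of the 3 mice per group. Nanoplastic mice lie below all vehicle mice for Atp6v0a2, Atp6v1a, Atp6v0c, Atp6v1d and Atp6ap1, while Car4 and Atp6v1h overlap and Car8 is set by 1 nanoplastic mouse at 16.6 CPM.

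Promoter letters were read for a few pump genes, so that the sequence before the start of the catalytic gene can be set beside that of the B1 isoform. CACGTG is the core of the element that the TFEB family binds in lysosomal genes, and GTAAACA is a forkhead motif, the family of Foxi1, the intercalated cell regulator. The 250 bases before each start were searched on both strands in RefSeq windows (GRCm38.p6), which were found for 31 members. These members had 38 windows, since some genes have several. CACGTG was present in 3 of the 38 (7.89%), of Atp6v0b, Atp6v1a and Slc9a3, against 6.02% of 32851 windows of all genes. GTAAACA was present in 1 (2.63%), of Atp6v1b1, against 3.17% of all windows. The longer TCACGTGA, which contains CACGTG, was in 1 window (Atp6v1a), against 0.785% of all windows, and TGTTTA, which overlaps the reverse complement of GTAAACA, was in 2 (Atp6v1b1 and Car12), against 12.0%. The stretches below hold the motif in capitals with 40 bases on either side, or fewer where the start comes first, written 5′ to 3′ on the gene's strand.
Atp6v1a, chr16:44139345-44139430, minus strand: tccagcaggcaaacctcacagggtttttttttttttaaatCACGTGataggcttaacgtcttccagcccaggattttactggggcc
Atp6v0b, chr4:117887330-117887405, minus strand: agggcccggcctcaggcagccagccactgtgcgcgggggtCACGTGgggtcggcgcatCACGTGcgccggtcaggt
Atp6v1b1, chr6:83742879-83742965, plus strand: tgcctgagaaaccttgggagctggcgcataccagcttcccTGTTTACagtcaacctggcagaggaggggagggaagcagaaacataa
Atp6v1a holds CACGTG 131 to 126 bases before its start. Atp6v0b holds it at 36 to 31 and again at 18 to 13 bases before, and Atp6v1b1 shows the forkhead letters as their reverse complement at 98 to 92 bases before. These are matches of letters only. Of the factors, Tfeb, Tfe3 and Mitf had log2 fold changes of 0.06, -0.11 and -0.03, and Foxi1 of 0.01. Beside these, Atp6v0b, the other gene with CACGTG in the pump, had a log2 fold change of -0.05 with overlapping groups.

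Of the 13 members known from intercalated cells, 0 reached an unadjusted p under 0.05, and their median log2 fold change was -0.03. They scattered more within the nanoplastic group than within the vehicle group. The coefficient of variation of CPM was larger in nanoplastic than in vehicle mice for 12 of 13 (92.3%, against 53.5% of all genes), with medians of 14.8% in nanoplastic and 5.39% in vehicle mice. Over all genes these medians were 10.2% in nanoplastic and 9.19% in vehicle mice. Over all 41 tested members, these 13 among them, the coefficient was larger in nanoplastic mice for 29 (70.7%). The medians there were 9.49% in nanoplastic and 4.84% in vehicle mice. Among the 19 pump genes outside the 13 it was larger for 10 (52.6%), with medians of 6.48% in nanoplastic and 4.57% in vehicle mice. The lowest of the 6 libraries was nanoplastic 1 for 10 of the 13 (76.9%, against 19.4% of all genes), and the highest was nanoplastic 3 for 11 (84.6%, against 16.4%). Over all 41 members those numbers were 22 (53.7%) and 15 (36.6%), so part of this order was shared with other members. Relative to the vehicle mean, the median of the 13 was -0.27, -0.03 and 0.19 on the log2 scale in nanoplastic 1, 2 and 3, and -0.02, 0.03 and -0.03 in vehicle 1, 2 and 3. Each group has only 3 mice, and the difference in spread was not tested.

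The direction for these 13 rested on nanoplastic 1. With it, 10 were negative, and without it 3 were, with a median of 0.07. Without nanoplastic 3, 11 were negative, with a median of -0.14. Without nanoplastic 1 and vehicle 3 together, 4 were negative, and Slc4a9 (0.35 on the log2 scale), Atp6v0d2 (0.22) and Slc26a4 (0.20) were higher at an unadjusted p under 0.05 (edgeR), as were 5.4% of all genes in that setting. Library size alone and TPM each gave 6 negative of 13, while 11 lay below the median of all genes with TMM, 11 with library size alone and 8 with TPM. Markers of the thick limb and distal convoluted tubule followed a like order: the median of 5 was -0.26, -0.05 and 0.20 on the log2 scale in nanoplastic 1, 2 and 3, and -0.07, -0.02 and 0.10 in vehicle 1, 2 and 3. Their sums, led by the most abundant of them, were 5304, 5511 and 4851 CPM in nanoplastic kidneys and 6024, 6420.4 and 5486 CPM in vehicle kidneys. Principal cell markers ran the other way across the nanoplastic mice, highest in nanoplastic 1, as given above, and the sum over 9 proximal markers was 14310, 16356 and 17211 CPM in nanoplastic kidneys and 16829, 16289 and 17143 CPM in vehicle kidneys. The part of any of these lists in the scatter was not tested.

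**Figure D5:**
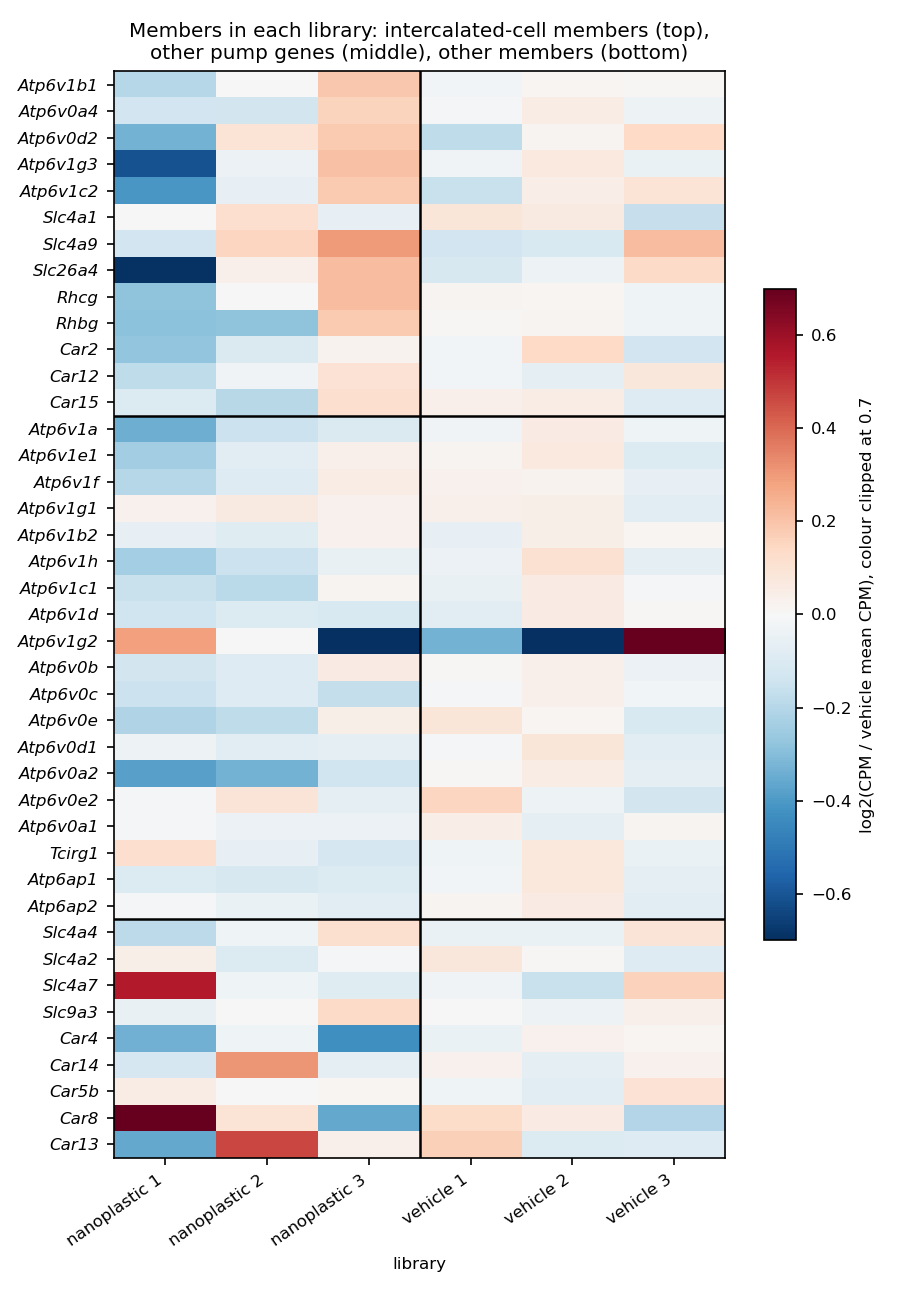
Heat map of log2(CPM / vehicle mean) for each tested member (rows) in each library (columns), with the intercalated-cell members at the top, other pump genes in the middle and other members at the bottom. Colours are clipped at 0.7. The top block is blue in nanoplastic 1 and red in nanoplastic 3 for most genes. The middle block is mostly pale blue across the nanoplastic columns, and its median was as low in vehicle 3 (-0.058) as in nanoplastic 3 (-0.056).

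The isoforms behind the intercalated cell pump showed this pattern. Atp6v1b1, whose loss causes renal tubular acidosis with deafness in humans, had 44.0, 50.6 and 57.6 CPM in nanoplastic mice, against 49.7, 50.9 and 50.8 CPM in vehicle mice. The log2 fold change was 0.01. Atp6v0a4 had 189.5, 190.4 and 231 CPM in nanoplastic mice, against 206, 215 and 203 CPM in vehicle mice, a log2 fold change of -0.03. For both, vehicle mice lay inside the nanoplastic range. Atp6v1g3, a stalk isoform of kidney, had 20.0, 29.7 and 35.2 CPM in nanoplastic kidneys and 30.1, 32.0 and 29.5 CPM in vehicle kidneys, with a log2 fold change of -0.12. Atp6v1c2 had 16.2, 20.6 and 24.4 CPM in nanoplastic mice, against 19.3, 22.2 and 23.0 CPM in vehicle mice (-0.08 on the log2 scale). Atp6v0d2, also an osteoclast gene, had 21.5, 28.9 and 30.7 CPM in nanoplastic mice, against 23.9, 27.4 and 29.8 CPM in vehicle mice, with a log2 fold change of -0.002. In all 5 pump isoforms nanoplastic 1 was the lowest library and nanoplastic 3 the highest.

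Set within each library, the ratio of Atp6v1b1 to Atp6v1b2 in TPM was 0.278, 0.307 and 0.333 in nanoplastic kidneys and 0.302, 0.286 and 0.298 in vehicle kidneys. The log2 difference was 0.05 (exact permutation test, two-sided p = 0.6, where 0.1 is the smallest p that 3 against 3 allows). It was -0.016 without nanoplastic 3.

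Among the exchangers, Slc26a4 showed the widest scatter. Pendrin had 49.7, 82.3 and 93.2 CPM in nanoplastic mice, against 74.4, 78.6 and 88.3 CPM in vehicle mice. Nanoplastic 1 alone lay below the vehicle mice, and the log2 fold change was -0.10 ± 0.18. Slc4a1, the type A exchanger and also the band 3 protein of red cells, had 22.6, 24.5 and 21.6 CPM in nanoplastic mice, against 23.9, 23.5 and 20.2 CPM in vehicle mice, with a log2 fold change of 0.02. Its groups overlapped. Erythroid transcripts were present. Their 8 markers summed to 627, 488 and 534 CPM in nanoplastic kidneys and 823, 862 and 580 CPM in vehicle kidneys. Of the 6 tested, 5 were lower at an unadjusted p under 0.05 (edgeR), where 3.5% of all genes were. Rhag stayed at or under 0.0812 CPM. The part of erythroid transcripts in the Slc4a1 and Car2 values was not tested. Slc4a9, the type B exchanger on the blood side, had 62.8, 76.6 and 84.7 CPM in nanoplastic mice, against 62.8, 64.0 and 79.9 CPM in vehicle mice, a log2 fold change of 0.12 with overlapping groups.

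The TPM ratio of Slc26a4 to Slc4a1, a type B against a type A gene, was 1.41, 2.14 and 2.05 in nanoplastic mice, against 1.69, 2.07 and 2.29 in vehicle mice. The log2 difference was -0.12 (exact permutation test, two-sided p = 0.6, smallest possible 0.1), and it was 0.065 without nanoplastic 1.

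The ammonia channels scattered in the same order. Rhcg, on the luminal and basolateral sides of collecting duct cells, had 59.25, 71.7 and 83.6 CPM in nanoplastic kidneys and 72.8, 72.5 and 70.3 CPM in vehicle kidneys. Rhbg, on the basolateral side, had 27.9, 28.01 and 38.6 CPM in nanoplastic mice, against 34.3, 34.5 and 33.4 CPM in vehicle mice. For both the vehicle mice lay inside the nanoplastic range, and the log2 fold changes were -0.01 and -0.12.

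Of the carbonic anhydrases, which interconvert carbon dioxide and bicarbonate, the cytosolic Car2 had 166, 188 and 205 CPM in nanoplastic mice, against 199, 222 and 184 CPM in vehicle mice. Its log2 fold change was -0.11, with overlapping groups. Car12, a membrane enzyme of the basolateral side, had 188, 208 and 228 CPM in nanoplastic kidneys and 209, 203 and 224 CPM in vehicle kidneys (-0.03 on the log2 scale). Car15, a membrane-anchored enzyme that humans lack, had 53.9, 50.3 and 62.4 CPM in nanoplastic mice, against 59.0, 59.6 and 54.0 CPM in vehicle mice (-0.05). All 3 overlapped between the groups.

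In the proximal tubule set, Car4, the anhydrase of the brush border, stood apart. It had 60.1, 74.3 and 56.4 CPM in nanoplastic mice, against 73.6, 77.5 and 76.8 CPM in vehicle mice, a log2 fold change of -0.26 ± 0.10 with an edgeR adjusted p of 0.627. Nanoplastic 2 overlapped with vehicle 1. It kept p under 0.05 in 7 of the 14 alternatives and was -0.21 without nanoplastic 1, where its p was above that. Car14, the other membrane enzyme there, had 42.2, 56.8 and 43.7 CPM in nanoplastic kidneys and 46.9, 43.9 and 46.9 CPM in vehicle kidneys, a log2 fold change of 0.05 with nanoplastic 2 the highest library.

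Slc4a4, which returns bicarbonate to the blood with sodium, had 1254, 1394 and 1538 CPM in nanoplastic mice, against 1374, 1377 and 1513 CPM in vehicle mice. Slc9a3, the luminal sodium-proton exchanger, had 102, 107 and 116 CPM in nanoplastic mice, against 106, 104 and 109 CPM in vehicle mice. Both overlapped, with log2 fold changes of -0.03 and 0.03 and 95% intervals of -0.22 to 0.16 and -0.12 to 0.18. For both, nanoplastic 1 was the lowest library and nanoplastic 3 the highest, as for most intercalated-cell members.

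The other transporters and anhydrases gave no difference past the test. Slc4a7, a sodium bicarbonate cotransporter, had 31.6, 21.0 and 20.3 CPM in nanoplastic kidneys and 21.1, 19.3 and 24.0 CPM in vehicle kidneys, a log2 fold change of 0.18 with nanoplastic 1 above all other libraries. Car8, which lacks catalytic activity, had 16.6, 7.47 and 5.46 CPM in nanoplastic mice, against 7.64, 7.28 and 6.08 CPM in vehicle mice, a log2 fold change of 0.50 ± 0.33 with an edgeR adjusted p of 0.762. The fold change was -0.10 on that scale without nanoplastic 1. For Car8 too nanoplastic 1 was the highest library, and nanoplastic 3 the lowest. Slc4a2, a widely expressed chloride-bicarbonate exchanger, the mitochondrial Car5b and the cytosolic Car13 had log2 fold changes of -0.02, 0.02 and 0.09.

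Beyond the members, 69 gene names in 4 lists of the same physiology were read from the fit, with Adgrf5 also under its older name Gpr116. Of these, 64 were tested. None passed an edgeR adjusted p of 0.05, 4 were lower and 4 higher at an unadjusted p under 0.05 (12.5% in all, against 7.19% of all genes). Of 16 genes for V-ATPase assembly and regulation, 11 had negative log2 fold changes (48.1% of all genes did), with a median of -0.07. At an unadjusted p under 0.05 (edgeR), 1 was lower, where 3.5% of all genes were. That gene was Clcn5, the endosomal chloride-proton exchanger that works beside the pump in proximal endocytosis: it had 171, 185 and 195 CPM in nanoplastic mice, against 206, 216 and 207 CPM in vehicle mice, with no overlap, a log2 fold change of -0.19 ± 0.07 and an edgeR adjusted p of 0.606. Tldc2, with a domain found in proteins that bind the pump, had a log2 fold change of 0.68 with an edgeR adjusted p of 0.731, at under 2 CPM in all libraries.

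Of 22 other transporters and anhydrases tested, 2 were lower and 2 higher at an unadjusted p under 0.05. Over all genes, 3.5% were lower and 3.69% higher at that level. Car9, a hypoxia-responsive membrane anhydrase, had 11.5, 14.2 and 8.84 CPM in nanoplastic mice, against 7.60, 5.85 and 6.63 CPM in vehicle mice. No vehicle mouse reached the lowest nanoplastic mouse, and the log2 fold change was 0.79 ± 0.17 with an edgeR adjusted p of 0.353. Slc9a8, another sodium-proton exchanger, had 121, 112 and 140.0 CPM in nanoplastic mice, against 145, 160.1 and 154 CPM in vehicle mice. Its groups did not overlap, with a log2 fold change of -0.30 ± 0.08 and an edgeR adjusted p of 0.526. The others, named after their values were seen, were Slc26a11 (log2 fold change 0.31), a chloride and sulfate transporter, and Slc26a6 (-0.35), an apical anion exchanger that carries oxalate.

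Of 9 genes of renal ammonia production, 8 had negative log2 fold changes (48.1% of all genes did), with a median of -0.08. At an unadjusted p under 0.05 (edgeR), 1 was lower and 1 higher, where 3.5% and 3.69% of all genes were. Relative to the vehicle mean, the median of the 9 was -0.203, -0.048 and -0.016 on the log2 scale in nanoplastic 1, 2 and 3. In vehicle 1, 2 and 3 it was -0.011, -0.026 and 0.017, so the groups overlapped and nanoplastic 1 was the lowest library. Slc6a19, the neutral amino acid transporter of the brush border, had a log2 fold change of 0.38 (edgeR adjusted p = 0.607) and Slc7a8, a basolateral amino acid exchanger, of -0.25 (edgeR adjusted p = 0.669). Of 17 genes of acid-base sensing and intercalated cell identity, 0 were lower and 1 was higher at that level. Aqp6, the vesicle aquaporin of type A intercalated cells, had 5.89, 6.64 and 5.51 CPM in nanoplastic mice, against 3.86, 4.34 and 3.95 CPM in vehicle mice. All nanoplastic mice were above all vehicle mice, with a log2 fold change of 0.57 ± 0.15 and an edgeR adjusted p of 0.486. The median of the 17, relative to the vehicle mean, was -0.072, -0.005 and 0.063 on the log2 scale in nanoplastic 1, 2 and 3. In vehicle 1, 2 and 3 it was -0.081, 0.036 and 0.020, so the groups overlapped and vehicle 1 was the lowest library. Gpr4, a proton-sensing receptor, had a log2 fold change of -0.46 (edgeR adjusted p = 0.734), and Foxi1 had 8.16, 11.1 and 11.4 CPM in nanoplastic kidneys and 9.82, 9.71 and 10.9 CPM in vehicle kidneys.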

How the data were processed

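Per the submitters' processing notes, reads were trimmed with Trim Galore 0.6.6, aligned with STAR 2.7.9a to GRCm39 and quantified with RSEM 1.3.3. Annotation release and strand setting are not given in the sources used here. Per gene and library, the deposited values were an expected count, TPM and FPKM (FPKM was not used). Gene IDs were matched to symbols, which 51884 of 57180 had. Expected counts were rounded and tested in R 4.3.3 with edgeR 4.0.16: filterByExpr, TMM, quasi-likelihood, group as the only term and Benjamini-Hochberg adjustment over 18092 genes, with a threshold of 0.05. DESeq2 1.42.0, limma 3.58.1 (voom, and log2(TPM + 1)), other scalings, no filter and left-out libraries were alternatives. Log2 fold changes are nanoplastic minus vehicle.

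The members, the lists and the tests were chosen with earlier results of these data known. Values in each library were given for the members known from intercalated cells and the proximal tubule, for 5 widely expressed pump genes and for the 8 members of smallest p. The 2 genes of smallest p stand for each other list. Expected counts were not whole for Atp6v0a4, Atp6v0c, Atp6v1g1, Car14, Car15 and Slc4a2 in all 6 libraries, so reads there were shared with other loci. The labels do not say whether mice shared cages or preparation days. With 3 libraries per group, a p-value sets the group difference against the spread between these mice, which edgeR estimates partly from all genes. It covers no spread beyond these mice.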

Additional observations from a re-analysis of the deposited data

How the results depend on the processing

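Members past an adjusted p of 0.05 numbered 0 in all 14 alternatives. Over all genes the count was 55 with DESeq2 (36 lower, 19 higher), 207 with no count filter, 27 without vehicle 3 and nanoplastic 1 together, and between 0 and 5 with 1 library left out. Members at an unadjusted p under 0.05 numbered 2 with library size alone, where 7.71% of all genes were at that level. They numbered 0 with log2(TPM + 1), where 5.36% of all genes were. Without vehicle 3 and nanoplastic 1 together, 1 was lower and 3 were higher, where 4.44% and 5.4% of all genes were. With 1 library left out they numbered between 1 (without nanoplastic 1 or vehicle 2) and 7 (without nanoplastic 3). In those settings 6.94%, 3.83% and 9.29% of all genes were at that level. For the other acid-base genes that range was 4 (without nanoplastic 2) to 16 (without nanoplastic 3), where 5.55% and 9.29% of all genes were. The cause was not tested. The median log2 fold change over members lay between -0.10 and -0.02 with 1 library left out and was 0.01 with log2(TPM + 1). The log2 difference in the ratio of Atp6v1b1 to Atp6v1b2 lay between -0.016 and 0.11 with 1 library left out. That of Slc26a4 to Slc4a1 lay between -0.24 and 0.065, and was 0.16 without vehicle 3 and nanoplastic 1 together. Same-numbered libraries correlated at 0.04, -0.02 and 0.10 in their deviations, and libraries of unlike number between -0.12 and 0.08. Such values from 3 mice per group cannot settle whether the numbers pair mice. With the number as a replicate block, 3 members were at an unadjusted p under 0.05, where 7.41% of all genes were, and 0 passed adjustment. The ratios' log2 differences stayed at 0.05 and -0.12, as they must with 1 library of each group per block. Over 27 named members and 378 values under alternatives, 0 gained an adjusted p under 0.05, and 52 of 322 values changed sign among those at p of 0.05 or above.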

Other observations

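Car3, a muscle and fat carbonic anhydrase that was not a member, had 110.6, 29.8 and 24.7 CPM in nanoplastic mice and 36.6, 41.0 and 52.4 CPM in vehicle mice. It was highest in nanoplastic 1 and next in vehicle 3, the libraries with Adipoq, and its log2 fold change was 0.35 ± 0.45 (SE). Of the members, 3 were also highest in nanoplastic 1, Car8 at 16.6 CPM, Slc4a7 at 31.6 CPM and Tcirg1 at 21.0 CPM. The urothelial marker Upk1b had 7.59, 0.710 and 1.404 CPM in nanoplastic mice and 1.99, 1.301 and 0.637 CPM in vehicle mice. The part of fat or urothelium in these values was not tested.

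Of 8 principal cell markers, 6 had positive and 2 negative log2 fold changes, with a median of 0.21. Over all genes, 48.1% were negative. The aquaporin Aqp4, which had the highest value of them and was chosen for it, had 82.8, 63.9 and 36.2 CPM in nanoplastic mice, against 31.0, 31.5 and 27.7 CPM in vehicle mice. Its order over the nanoplastic mice was the reverse of that of the 5 intercalated pump isoforms, which were lowest in nanoplastic 1 and highest in nanoplastic 3. This is a description of 3 libraries, with no test.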
